A study of Mus musculus with 6 samples.

Results

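Collagens are secreted proteins of the extracellular matrix whose chains coil into helical trimers. Fibrillar chains such as those of types I, II, III, V and XI build the fibrils of connective tissue, fibril-associated chains (FACIT) decorate them, and other chains form networks, beaded filaments, anchoring structures or membrane-spanning proteins. Type I collagen is normally a trimer of Col1a1 and Col1a2 chains, and its synthesis is best known from fibroblasts and bone cells. Type V chains co-assemble with type I and set the diameter of its fibrils.

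The genes described here are the collagen chains of the array, chosen by name: every gene whose only platform symbol has the form of a collagen chain, except Col4a1 and Col4a2, the main chains of basement membranes. The rule gave 40 of the 18194 genes measured. It keeps Col4a3, Col4a4, Col4a5 and Col4a6, so 36 of the 40 lie outside type IV. Col6a6 and Col28a1 were not analysed here, since the annotation used lists no probe set under either symbol. The 6 arrays, 2 in each group, all hold RNA of OLV2-1, a mouse line of embryonic stem cells in which the fluorescent reporter Venus was knocked into Oct4 (Pou5f1). The groups are undifferentiated embryonic stem cells (ESC), sorted for Venus and, per the protocol, for the surface protein CD31 (Pecam1); epiblast stem cell-like cells (EpiSC-like), sorted as Venus-positive and Pecam1-negative after 3 days of SFEBq, a serum-free aggregate culture that induces neural fate; and Venus-positive cells, with no Pecam1 gate named, after 7 days of SFEBq. ESC and day 3 cells were released with trypsin and left in SFEBq medium to recover surface antigens, whereas day 7 cells were released with EDTA alone, so stage, gate and handling cannot be told apart. OLV2-1 is 1 line, and nothing in the labels states whether replicates were grown as separate cultures. The p-values therefore measure only the spread between these samples, which may be technical.

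The only collagen chain to pass the test in any comparison was Col1a2, which was higher in EpiSC-like cells than in ESC. To show what precedes that gene, the 250 bases before its annotated start and the first 30 bases after it are printed with those of 3 other chains. Col8a2 gave a similar pattern without passing, Col5a3 the opposite one, and Col3a1, another fibrillar chain, stayed dim. The 3 were chosen after their values were seen. The sequences are from RefSeq, build GRCm38.p6, in the direction of the gene. Capitals mark CCAAT, the GC box GGGCGG and the letters TATAAA on either strand.
Col1a2, chr6:4505368-4505647, plus strand: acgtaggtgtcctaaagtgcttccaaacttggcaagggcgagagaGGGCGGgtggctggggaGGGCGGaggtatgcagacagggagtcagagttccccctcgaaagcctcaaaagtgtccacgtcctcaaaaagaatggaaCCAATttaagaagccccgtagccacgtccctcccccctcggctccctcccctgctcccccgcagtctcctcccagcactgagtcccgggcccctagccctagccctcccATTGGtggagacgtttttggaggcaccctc
Col8a2, chr4:126286544-126286823, plus strand: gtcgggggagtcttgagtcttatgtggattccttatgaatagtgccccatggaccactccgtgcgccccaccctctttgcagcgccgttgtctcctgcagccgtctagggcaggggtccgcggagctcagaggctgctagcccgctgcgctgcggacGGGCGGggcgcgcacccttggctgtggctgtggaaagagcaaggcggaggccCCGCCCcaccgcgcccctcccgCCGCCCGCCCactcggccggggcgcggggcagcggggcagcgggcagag
Col5a3, chr9:20815038-20815317, minus strand: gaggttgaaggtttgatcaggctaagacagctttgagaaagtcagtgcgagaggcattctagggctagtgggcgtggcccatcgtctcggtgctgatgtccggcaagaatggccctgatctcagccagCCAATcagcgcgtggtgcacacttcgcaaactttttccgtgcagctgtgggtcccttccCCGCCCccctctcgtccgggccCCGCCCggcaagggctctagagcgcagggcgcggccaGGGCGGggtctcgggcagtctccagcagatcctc
Col3a1, chr1:45311288-45311567, plus strand: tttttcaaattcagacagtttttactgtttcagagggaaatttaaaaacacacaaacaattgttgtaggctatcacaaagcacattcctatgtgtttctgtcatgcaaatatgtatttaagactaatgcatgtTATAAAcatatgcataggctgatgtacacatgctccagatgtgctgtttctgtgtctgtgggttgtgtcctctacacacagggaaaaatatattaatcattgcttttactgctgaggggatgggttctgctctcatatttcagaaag

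The Col1a2 window holds CCAAT forward from position -109 and reversed from position 1, counted from the annotated start, and 2 GC boxes from -205 and -188. The Col5a3 window holds CCAAT from -122 and 3 GC boxes, the Col8a2 window 4 GC boxes, of which those from -19 and -15 overlap, and the Col3a1 window only TATAAA from -117. Of the 40 chains, 31 matched the promoter table, with 34 windows. CCAAT was in 11 of these 34, against 36.1% of all 32851 windows, GGGCGG in 20, against 34.7%, and TATAAA in 5, against 13.1%. These matches are descriptions of the letters in the windows only.

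Most collagen chains gave dim signals on these arrays. The values are linear intensities scaled by the authors so that every array has 1 trimmed mean, and they were analysed as log2(signal + 16), which understates the change of dim genes. Signals of different probe sets have no common scale, so chains are not ranked by level here. The comparison with the median of all genes carries the same limit and describes signal, not RNA amount. Of the 40 chains, 33 stayed below the median of all genes (7.58 on the log2 scale) on all 6 arrays, and 5 had a group mean at or above it, against 53.9% of all genes. The 5 were Col1a2, Col5a1, Col5a2, Col18a1 and Col27a1. In bulk RNA, fewer cells that express a gene and less RNA per cell cannot be told apart.

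EpiSC-like cells had more Col1a2 signal than ESC. Col1a2 (NCBI gene 12843) gave 233 and 218 intensity units in EpiSC-like cells, against 27.3 and 67.8 in ESC. Both EpiSC-like arrays lay above both ESC arrays, and the means were 226 ± 11.1 in EpiSC-like cells and 47.6 ± 28.6 in ESC (SD, n = 2 each). The log2 difference was 2.00 ± 0.34 (SE of the limma fit), a 4.01-fold difference on the log2(signal + 16) scale, with an adjusted p of 0.0474 (limma, Benjamini-Hochberg over 18194 genes). It was 2.53 in the first array set, the replicate 1 arrays, and 1.48 in the second, the replicate 2 arrays. This p lies close to the threshold of 0.05. The call was lost with a pseudocount of 1 (limma adjusted p = 0.144) and with arrays centred on their median (0.0632). It was lost too with quantile normalization (0.0596) and with the array set as a block (0.0748). With a pseudocount of 1 or with the block, 0 of all genes passed in this comparison. Without any 1 of the 6 arrays the call was lost as well, in fits that leave 1 array in a group. The direction stayed the same in these settings. At day 7 Col1a2 gave 49.7 and 43.4, back within the range of the ESC arrays.

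Col1a2 has 3 probe sets, and the strongest of them is the value used above. A second probe set gave 64.1 and 73.6 in EpiSC-like cells, against 15.8 and 1.05 in ESC, with a log2 difference of 1.86. At day 7 this probe set gave 22.95 and 49.4. The third stayed between 0.430 and 19.1 on all 6 arrays, with a log2 difference of 0.26 between EpiSC-like cells and ESC. Day 7 thus lay within the ESC range for the strongest probe set, and above both ESC arrays for the second.

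**Figure D1:**
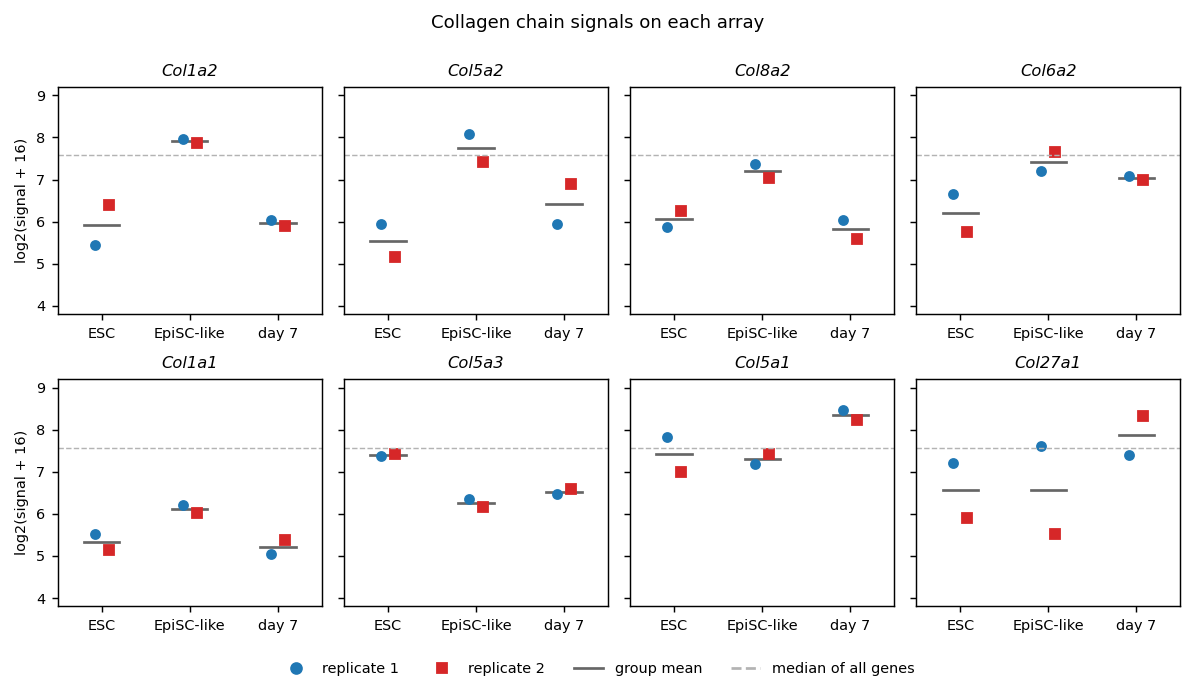
Signals of 8 collagen chains on each of the 6 arrays, as log2(signal + 16), with ESC, EpiSC-like cells and day 7 cells along the horizontal axis. Circles are replicate 1, squares replicate 2, bars group means over 2 arrays, and the dashed line the median of all genes at 7.58; Col1a2, Col5a2, Col8a2 and Col1a1 are highest in EpiSC-like cells, Col5a3 is highest in ESC, and Col5a1 is highest at day 7.

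The partner chain of type I collagen, Col1a1 (chosen after its values were seen), was dim throughout. It gave 58.3 and 48.5 in EpiSC-like cells, against 29.7 and 19.2 in ESC, and 16.9 and 25.5 at day 7. The EpiSC-like arrays did not overlap either other group, but the log2 difference to ESC of 0.79 ± 0.26 did not pass (limma adjusted p = 0.206). A second Col1a1 probe set read 2.34 to 5.76 on all 6 arrays and did not show the difference. Col3a1, the main chain of type III collagen, read 20.9 to 56.0 on the 6 arrays, and its groups overlapped.

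The type V chains differed from each other. Col5a2 (NCBI gene 12832) gave 254 and 156 in EpiSC-like cells, against 45.8 and 19.5 in ESC. Its log2 difference of 2.20 ± 0.44 was larger than that of Col1a2 but did not pass (limma adjusted p = 0.0667), and was 2.13 and 2.27 in the array sets. At day 7 it gave 45.6 and 102, which overlapped ESC. Its second probe set gave 140 and 65.4 in EpiSC-like cells, against 19.2 and 21.5 in ESC. Both Col5a2 probe sets were thus highest in EpiSC-like cells.

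Col5a3 (NCBI gene 53867, chosen after its values were seen) ran the other way. It gave 65.5 and 55.6 in EpiSC-like cells, against 151 and 157 in ESC, and 73.2 and 79.9 at day 7. The ESC arrays lay above all the others. The log2 differences to ESC were -1.15 ± 0.22 for EpiSC-like cells and -0.88 ± 0.22 for day 7, and neither passed (limma adjusted p = 0.0607 and 0.117). The first passed with 3 of the alternatives, at a pseudocount of 64 (0.0406), with the dimmest 25% of genes left out (0.0316) and with arrays centred on their median (0.0477). A second Col5a3 probe set was near the floor, at 1.27 to 21.8.

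Col5a1, the type V chain found in most of its trimers, was highest at day 7. It gave 211 and 112 in ESC, 128 and 155 in EpiSC-like cells, and 339 and 284 at day 7, and both day 7 arrays lay above the other 4. The log2 differences of day 7 to ESC and to EpiSC-like cells were 0.94 ± 0.33 and 1.06 ± 0.33 and did not pass (limma adjusted p = 0.206 and 0.234). A second Col5a1 probe set gave 184 and 182 at day 7, against 156 and 137 in EpiSC-like cells and 173 and 197 in ESC. It was thus higher at day 7 than in EpiSC-like cells, by 0.29 on the log2 scale, but not than in ESC. The third read 3.93 to 8.24 on all 6 arrays, and its groups overlapped.

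Col27a1, a fibrillar chain of cartilage, differed widely between replicates. It gave 132 and 44.1 in ESC, 181 and 30.0 in EpiSC-like cells, and 153 and 307 at day 7. Both day 7 arrays lay above both ESC arrays, while the EpiSC-like arrays overlapped each of the other groups. The log2 difference between day 7 and ESC, 1.31 ± 0.76, was 0.19 in the first array set and 2.43 in the second (limma adjusted p = 0.421). The other fibrillar chains, Col2a1, Col11a1, Col11a2 and Col24a1, had differences from -0.34 to 0.51 between EpiSC-like cells and ESC. Of these, Col2a1, the chain of cartilage fibrils, read 153 and 169 in EpiSC-like cells, against 93.5 and 125 in ESC, and did not pass (limma adjusted p = 0.381).

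**Figure D2:**
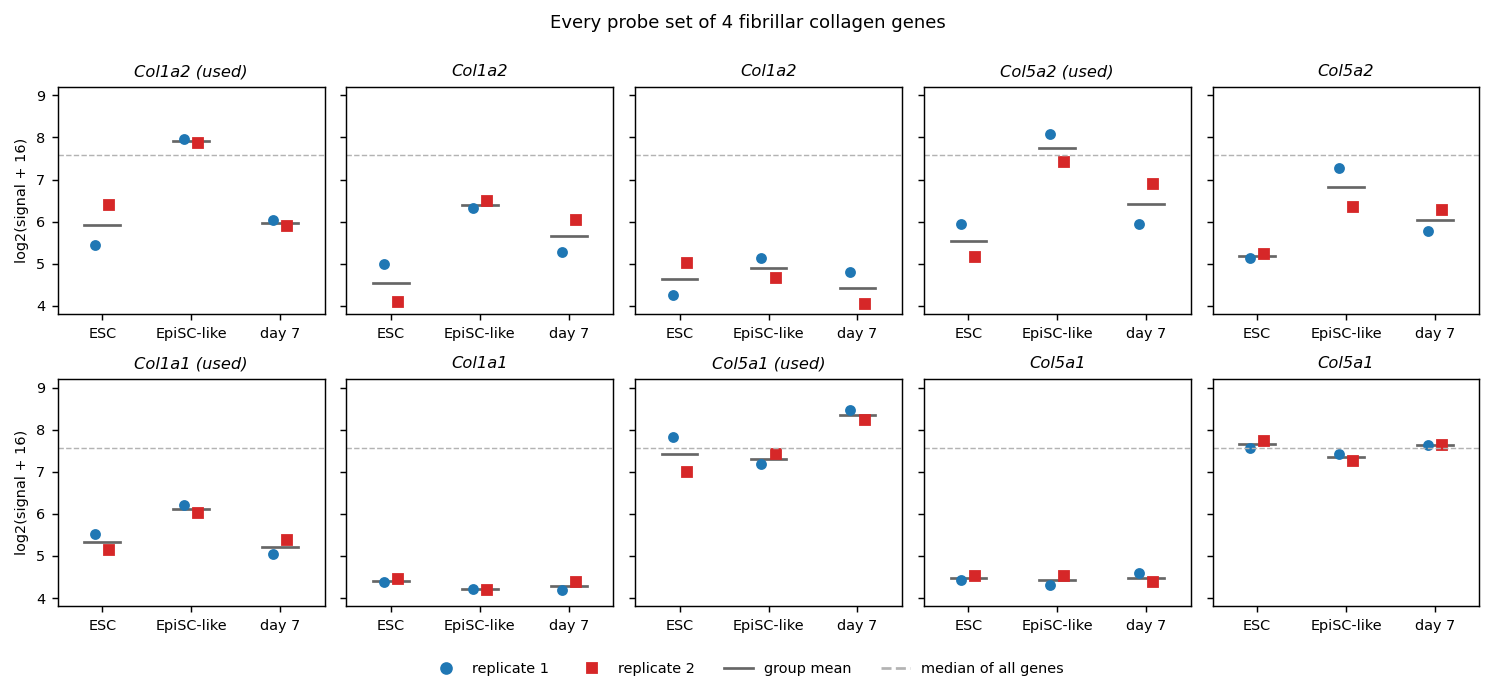
Every probe set of Col1a2, Col5a2, Col1a1 and Col5a1 on each array, as log2(signal + 16), with the probe set used for each gene marked. Circles are replicate 1, squares replicate 2, and bars group means; both EpiSC-like arrays lie above the other 4 in 2 of the 3 Col1a2 probe sets and in both Col5a2 probe sets, while both day 7 arrays lie above the other 4 in 1 of the 3 Col5a1 probe sets.

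Outside the fibrillar class, 2 chains had the EpiSC-like pattern most clearly, and both were chosen after their values were seen. Col8a2, a short chain of the network beneath corneal endothelium, gave 149 and 116 in EpiSC-like cells, against 42.3 and 60.2 in ESC, and 50.1 and 32.3 at day 7. Its log2 difference to ESC was 1.15 ± 0.28 (limma adjusted p = 0.114), and the EpiSC-like arrays lay above the other 4. Col6a2, a chain of the beaded filaments of type VI collagen, gave 132 and 185 in EpiSC-like cells, against 85.0 and 38.1 in ESC, and 120 and 112 at day 7. Its log2 difference was 1.22 ± 0.35 (limma adjusted p = 0.158), and a second probe set gave 106 and 108 in EpiSC-like cells, against 97.98 and 65.4 in ESC. Its day 7 arrays also lay above those of ESC.

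Col18a1 (NCBI gene 12822), a proteoglycan chain of basement membranes and the source of endostatin, stood well above the median of all genes on every array. It gave 4076 and 4307 in EpiSC-like cells, against 2496 and 3576 in ESC, and 3544 and 2937 at day 7. Its log2 difference between EpiSC-like cells and ESC, 0.49 ± 0.27, did not pass (limma adjusted p = 0.452). A second probe set read 2119 to 2774 on the 6 arrays. Col18a1 was the only one of the 40 chains whose signal was above the median of all genes on all 6 arrays.

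Of the other 26 chains, 0 passed in any comparison, where at most 1.31% of all genes were called higher and 0.583% lower. In the FACIT class, all 9 chains lay between -0.62 and 0.25 for EpiSC-like cells against ESC. Col16a1 read 99.9 to 250 on the 6 arrays, and its groups overlapped. Col22a1, chosen after its values were seen, gave 112 and 132 at day 7, against 77.9 and 77.4 in ESC, a log2 difference of 0.56 ± 0.25 (limma adjusted p = 0.311). The 4 type IV chains kept by the rule lay between -0.26 and 0.69. The 4 transmembrane chains lay between -0.71 for Col13a1 and 0.29 for Col23a1, and Col17a1 and Col25a1 lay between them. Col10a1, Col15a1 and Col8a1 read below 40 on every array, as did the fibrillar chain Col24a1. The beaded filament and anchoring chains other than Col6a2 lay between -0.34 for Col6a3 and 0.47 for Col6a1. Col7a1, the chain of the anchoring fibrils under epidermis, read 93.4 to 136.

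**Figure D3:**
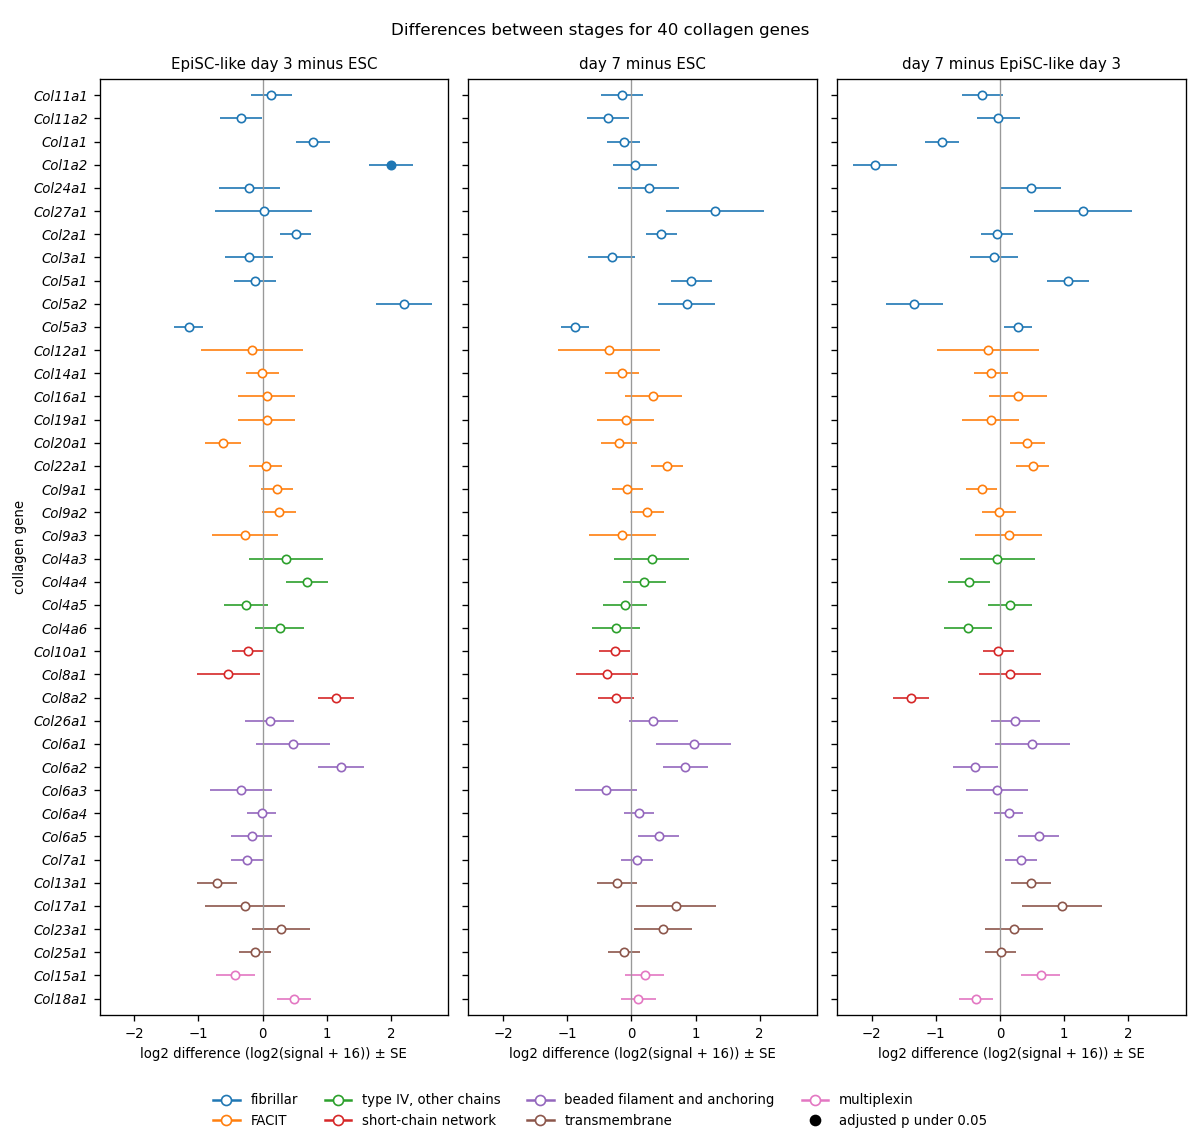
Log2 differences of log2(signal + 16) with standard errors of the limma fit for all 40 collagen chains in the 3 comparisons, coloured by class, with filled points where the adjusted p was under 0.05. The single filled point is Col1a2 in EpiSC-like cells against ESC, at 2.00, and most chains lie within 1 of 0.

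Some counts over the family lay above the share over the array, and others below it. Between EpiSC-like cells and ESC, 1 of 40 chains was called higher, against 1.31% of all genes, and 0 were called lower, against 0.583%. At an unadjusted p under 0.05, 5 of 40 were higher, against 9.75% of all genes, and 1 was lower, against 6.21%. The 5 were Col1a1, Col1a2, Col5a2, Col6a2 and Col8a2, and the 1 was Col5a3. The arrays of the groups did not overlap for 14 of 40 chains, against 44.9% of all genes. The median log2 difference of the 40 was 0.01, beside 0.03 over all genes.

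The later comparisons called no chain. Between day 7 and ESC, 0 of 40 chains were called higher in limma, against 0.753% of all genes, and 0 lower, against 0.286%. At an unadjusted p under 0.05, Col5a1 was the 1 chain higher, against 11.1% of all genes, and Col5a3 the 1 lower, against 7.19%. Arrays did not overlap for 9 of 40 chains, against 50.1% of all genes. The median log2 difference was 0.07, beside 0.02 over all genes, and 39 of the 40 differences were under 1 in size. Between day 7 and EpiSC-like cells, 0 of 40 were called higher in limma, against 0.0220% of all genes, and 0 lower, against 0.0165%. At an unadjusted p under 0.05, Col5a1 was the 1 chain higher at day 7, against 7.50% of all genes, and 4 chains were lower, against 6.60%. The 4 were Col1a1, Col1a2, Col5a2 and Col8a2. Arrays did not overlap for 19 of 40 chains, against 45.8% of all genes. The log2 differences were -1.95 ± 0.34 for Col1a2 (limma adjusted p = 0.0940), -1.34 ± 0.44 for Col5a2 (0.260) and -1.39 ± 0.28 for Col8a2 (0.120). Both comparisons share arrays with the first, so their values are not independent of it.

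Chains that lie next to each other in the genome need not share a pattern. RefSeq places 6 pairs of the measured chains as neighbours among protein-coding genes. Col5a2 and Col3a1 are 1 such pair, and their log2 differences between EpiSC-like cells and ESC were 2.20 and -0.21. Col6a2 and Col6a1 stood at 1.22 and 0.47, and Col9a1 and Col19a1 at 0.23 and 0.06. Col4a1 and Col4a2, the basement membrane pair that the rule leaves out, were both highest at day 7. Col4a1 gave 1853 and 7417 at day 7, against 541 and 380 in ESC. Col4a2 gave 809 and 2598 at day 7, against 222 and 152 in ESC. Their log2 differences between day 7 and ESC, 2.99 ± 0.61 and 2.88 ± 0.57, did not pass (limma adjusted p = 0.0818 and 0.0758). None of the 40 chains had a log2 difference above 1.31 in that comparison.

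Some enzymes that act on collagen chains inside the cell rose at day 7. New chains are hydroxylated on proline and lysine, folded with the aid of chaperones, exported, trimmed and crosslinked. Of 18 measured genes of modification and folding, 3 rose between day 7 and ESC, against 0.753% of all genes, and 0 fell, against 0.286%. In the other comparisons 0 passed, against at most 1.31% of all genes higher and 0.583% lower. P4ha1, a catalytic subunit of prolyl 4-hydroxylase, gave 2550 and 2544 at day 7, against 364 and 322 in ESC, and 785 and 667 in EpiSC-like cells. Both day 7 arrays lay far above the other 4, with a log2 difference to ESC of 2.84 ± 0.23 (limma adjusted p = 0.0221). P4ha2, the other main catalytic subunit, gave 1152 and 1404 at day 7, against 261 and 188 in ESC (2.44 ± 0.29, adjusted p = 0.0317). Plod2, the lysyl hydroxylase of the telopeptides, gave 3335 and 3275 at day 7, against 660 and 534 in ESC (2.45 ± 0.36, adjusted p = 0.0451).

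These 3 calls at day 7 kept their direction, and were lost, without any 1 of the 6 arrays. Such fits leave 1 array in a group and fewer residual degrees of freedom for every gene. The calls were lost also with all 6 arrays, at a pseudocount of 1 and with the array set as a block, where 0 of all genes passed. Over all alternatives the log2 differences to ESC were 2.53 to 2.92 for P4ha1, 2.22 to 2.66 for P4ha2 and 2.23 to 2.59 for Plod2. P4hb, the shared subunit of prolyl 4-hydroxylase, and Ppib, a prolyl isomerase, were uncalled, with log2 differences of 0.30 and 0.30 at day 7. The list's median log2 difference between day 7 and ESC was 0.30, beside 0.02 over all genes. Day 7 arrays also held more signal of endoderm markers, a cell type rich in secreted matrix: the 14 genes of that list summed to 6739 and 23121 at day 7, against 5163 and 4519 in ESC. That list holds Col4a1 and Col4a2, and its other 12 genes summed to 4076 and 13106 at day 7, against 4400 and 3986 in ESC. On the first day 7 array this sum lay within the ESC range, and most of it was Sparc. The median log2 difference of the 14 genes between day 7 and ESC was 1.84, and 0 were called, against 0.753% of all genes higher and 0.286% lower. The part of these markers in the enzyme values was not tested. The endoderm gene Ttr, chosen after its values were seen, gave 89.6 and 779 on the day 7 arrays, against 9.31 and 24.7 in ESC, and Sparc, a collagen-binding matrix protein in the same list, gave 2920 and 8610, against 3616 and 3233. Genes of the list went both ways on the first day 7 array. Cubn gave 186 there, against 27.5 and 61.4 in ESC, and Amn 234, against 357 and 324, both chosen after their values were seen.

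Of the procollagen processing and the receptor lists, 3 genes changed between EpiSC-like cells and ESC. Pcolce and Pcolce2 encode enhancers of procollagen C-proteinase, which removes the C-terminal propeptides of fibrillar collagens. Pcolce gave 478 and 299 in EpiSC-like cells, against 3585 and 2053 in ESC, and fell by 2.79 ± 0.40 on the log2 scale (limma adjusted p = 0.0330). At day 7 it gave 417 and 676, and its difference to ESC of -2.32 ± 0.40 did not pass (adjusted p = 0.0583). Pcolce2 gave 832 and 880 in EpiSC-like cells, against 2049 and 2414 in ESC, and 537 and 504 at day 7. It fell by 1.36 ± 0.23 in EpiSC-like cells (adjusted p = 0.0454) and by 2.06 ± 0.23 at day 7 (adjusted p = 0.0291), both against ESC. These were the 2 called of 6 processing genes in the first comparison, where 0.583% of all genes were called lower, and Pcolce2 was the 1 called in the second, where 0.286% were. The median log2 difference of the 6 in the first comparison was 0.27, opposite in sign to the called genes. For both genes, EpiSC-like and day 7 arrays lay below both ESC arrays.

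Mrc2, the endocytic receptor that takes up collagen fragments, was the 1 called of 9 receptor genes, where 1.31% of all genes were called higher. It gave 308 and 443 in EpiSC-like cells, against 51.6 and 39.2 in ESC, a log2 difference of 2.66 ± 0.32 (limma adjusted p = 0.0227). At day 7 it gave 254 and 158, and did not pass (adjusted p = 0.0592). Without any 1 of the 6 arrays, the calls of Pcolce, Pcolce2 and Mrc2 between EpiSC-like cells and ESC were lost. The call of Pcolce2 at day 7 was lost too, and these fits again leave 1 array in a group. With all 6 arrays, the calls of these genes were lost at a pseudocount of 1 and with the array set as a block, where 0 of all genes passed. Over all alternatives the log2 differences between EpiSC-like cells and ESC were -3.19 to -2.39 for Pcolce, -1.51 to -1.24 for Pcolce2 and 1.55 to 3.01 for Mrc2. For Pcolce2 between day 7 and ESC they were -2.27 to -1.94. The alternatives include the mean of all probe sets of a gene. Mrc2 has 2 probe sets, and the one not used was not examined on its own here, so the Mrc2 values above rest on 1 probe set. Ddr1 and Itgb1, a collagen receptor kinase and the shared integrin subunit, were uncalled, at 0.89 and 0.28 between EpiSC-like cells and ESC.

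**Figure D4:**
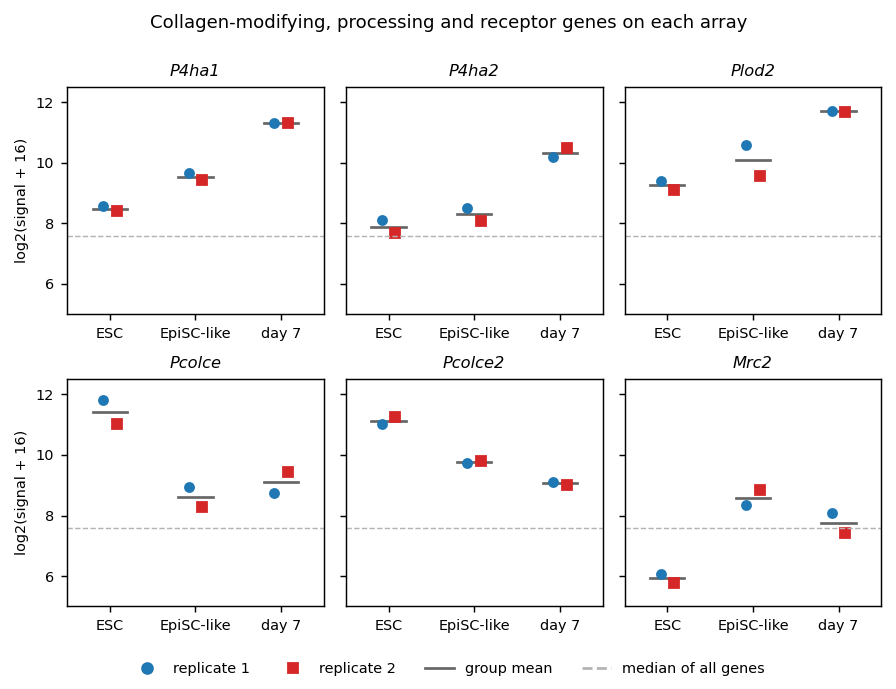
Signals of the 6 called genes of the collagen pathway on each array, as log2(signal + 16), with ESC, EpiSC-like cells and day 7 cells along the horizontal axis. Circles are replicate 1, squares replicate 2, bars group means, and the dashed line the median of all genes; P4ha1, P4ha2 and Plod2 are highest at day 7, Pcolce and Pcolce2 are highest in ESC, and Mrc2 is lowest in ESC.

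The other lists of the pathway held no called gene in any of the 3 comparisons. These were procollagen secretion with 10 genes, crosslinking with 4, proteases and inhibitors with 10, and small leucine-rich proteoglycans with 6. Over all genes, at most 1.31% were called higher and 0.583% lower in a comparison, so 0 calls in such short lists lie near those shares. Between EpiSC-like cells and ESC, the secretion genes Sar1b and Sec23a stood at -0.34 and 0.16, and the crosslinking genes Loxl1 and Loxl3 at -0.53 and 0.63. The inhibitor Timp1 stood at -1.05 and the protease Mmp14 at 0.50. The fibril-binding proteoglycans Dcn and Prelp stood at 1.13 and 0.04, and 0 of their 6 list members reached the median of all genes in any group. The uncalled processing proteases Adamts3 and Bmp1 stood at 0.62 and 0.56.

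Markers of cell types rich in fibrillar collagen moved with Col1a2 in part. The 12 fibroblast and mesenchyme genes summed to 1330 and 2173 in EpiSC-like cells, against 834 and 676 in ESC, and to 834 and 909 at day 7. Of the 12, Tagln, an actin-binding protein of contractile cells, rose between EpiSC-like cells and ESC, with 327 and 835 against 75.2 and 28.6 (3.08 ± 0.54, limma adjusted p = 0.0492). Tagln was the 1 called of the 12, where 1.31% of all genes were called higher. That call too was lost without any 1 of the 6 arrays, in fits that leave 1 array in a group. It was lost also with a pseudocount of 1 and with the array set as a block, where 0 of all genes passed. Of 14 alternatives it held in 4, among them the count over chains outside type IV, which leaves the fit unchanged. The log2 difference of Tagln was 2.38 to 3.74 over all alternatives. Acta2, the smooth muscle actin gene, and Pdgfrb, a receptor of mesenchymal cells, stood at 1.32 ± 0.32 and 1.63 ± 0.50 and did not pass. Unlike Col1a2, Pdgfrb was highest at day 7, with 299.6 and 253, against 59.0 and 11.1 in ESC (2.69 ± 0.50, limma adjusted p = 0.0681). Thy1, a surface protein of fibroblasts and other cells, gave 78.8 and 101 in EpiSC-like cells, against 262 and 139 in ESC. Without Tagln and Acta2, a split chosen after the values were seen, the other 10 summed to 550 and 526 in EpiSC-like cells, against 503 and 437 in ESC, and to 625 and 687 at day 7. Thy1 and the next 2 genes were chosen after their values were seen. Postn, a matrix protein of fibroblasts, gave 2.63 and 7.96 in EpiSC-like cells, against 16.8 and 23.9 in ESC. Lum, a proteoglycan of fibroblasts, gave 15.5 and 41.8 in EpiSC-like cells, against 20.5 and 52.7 in ESC. Twist1 and Dcn of this list, also chosen after their values were seen, were highest in EpiSC-like cells. Twist1 gave 147 and 80.9 there, against 68.9 and 15.99 in ESC, and 72.5 and 31.3 at day 7. Dcn gave 42.3 and 79.03, against 3.88 and 42.1 in ESC, and 16.1 and 12.2 at day 7. Between EpiSC-like cells and ESC they stood at 1.27 and 1.13 and did not pass (limma adjusted p = 0.332 and 0.361). The median log2 difference of the 12 genes was 0.26. The part of such cells in the Col1a2 difference was not tested.

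The other marker lists held 0 called genes in any comparison. In lists this short, 0 calls lie near the shares over all genes, which were at most 1.31% higher and 0.583% lower. For EpiSC-like cells against ESC the medians were -0.28 for endoderm, 0.18 for blood and endothelium, -0.18 for cartilage and notochord, -0.15 for neural crest and surface ectoderm, and -0.97 for pluripotent cells. The last list holds Pecam1, at -0.87, and Pou5f1, the genes of the sort gate and of the Venus reporter. Its median is therefore not independent of the sort. Kdr, an endothelial receptor, and Tek, another, stood at 0.89 and 0.20. The cartilage matrix genes Matn3 and Matn1 stood at -0.18 and -0.26. Foxd3 and Tfap2a, of the neural crest and surface ectoderm list, stood at 0.10 and -0.19. Foxd3 already read 541 and 471 in ESC, so its signal here is not particular to neural crest. The pluripotency gene Sox2 read 15215 to 22517 on the 6 arrays. Zfp42, a marker of naive pluripotency, gave 10036 and 6682 in EpiSC-like cells, against 18560 and 25291 in ESC, a log2 difference of -1.40 ± 0.30 that did not pass (limma adjusted p = 0.0772).

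The arrays fell into 2 sets by signal range, which follow the replicate numbers. Highest signals were 30793 to 36841 in the first set and 63296 to 66643 in the second. The poly-A controls averaged 500 to 720 on 4 arrays but 65.4 and 71.9 on ESC and EpiSC-like replicate 2. Each set holds 1 array of every group, so the differences given by set above are those within each set, and 1 array a group allows no test within a set. Actin probe sets at the 3' end exceeded those at the 5' end, a gap that grows with RNA degradation, by 0.71 and 0.94 (log2) at day 7, against 0.46 to 0.58 for the remaining arrays. Its part in the day 7 values was not tested.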

How the data were processed

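RNA from 6 sorted samples was measured on Affymetrix 3' arrays. The deposited values are linear intensities per probe set. Affymetrix Expression Console, version 1, is named without a role, per the submitters' processing notes. The deposited intensities had the same trimmed mean, 500, on every array after 2% of 45101 probe sets were removed at each end.

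The platform's annotation gave 1 gene to 34945 probe sets, and several to 932. For each of 18194 genes the probe set kept had the highest mean log2(signal + 16) over the arrays. All 6 arrays entered a fit in limma 3.58.1 (R 4.3.3) with 3 group means, no block and 3 residual degrees of freedom. The fit was run on simulated data with larger changes than any collagen chain showed and with no array-set effect. That run therefore does not cover changes of the size reported for the chains. A call needed an adjusted p (Benjamini-Hochberg, all genes) under 0.05 in 1 of 3 contrasts. No dim gene was left out.

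The members and the 13 gene lists, 7 of the collagen pathway and 6 of cell types, were chosen with earlier results of these data known. Array values are given for chains called in any contrast, for those whose highest group mean reached the all-gene median and whose group means differed by at least 1 on the log2 scale, and for Col1a2, with up to 8 examples of the others, the 4 with the highest mean signal (Col18a1, Col16a1, Col2a1 and Col7a1) and the 4 with the lowest; in each list, called genes and the 2 uncalled with the highest mean signal are named. Other genes were chosen after their values were seen. Precision is limited by 2 arrays per group. Alternatives changed the pseudocount, filter, scaling, block, probe set and arrays used. The sources used here do not give the genome build behind the annotation. Detection calls were not used here.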

Additional observations from a re-analysis of the deposited data

How the results depend on the processing

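The count of 1 chain called higher between EpiSC-like cells and ESC became 0 with a pseudocount of 1 and with arrays centred on their median. It was 0 too with quantile normalization and with the replicate number as a block. Over all genes 0, 184, 157 and 0 were called higher in these settings, against 239 in the main fit. The chain's call was also lost without any 1 array, in fits that leave 1 array in a group and fewer residual degrees of freedom for every gene. The count was also 0 among genes at or above the median, a filter that removes Col1a2, which was then not tested. It became 2, Col1a2 and Col5a2, with a pseudocount of 64 and with the dimmest 25% of genes left out. Over all genes 449 and 458 were called higher there. The count of 0 called lower became 1, Col5a3, with a pseudocount of 64, with those dim genes left out and with centred arrays. Over all genes 223, 214 and 149 were called lower there, against 106. Between day 7 and EpiSC-like cells 1 chain, Col1a2, was called lower with a pseudocount of 64 (limma adjusted p = 0.0417), among 83 genes in all, against 3 in the main fit. Over the 36 chains outside type IV, an alternative added after seeing the data, each count was the same. The small difference of Col1a2 between day 7 and ESC, 0.05, turned to -0.16 with centred arrays, -0.052 with quantile normalization, and ranged from -0.42 without ESC replicate 1, through -0.02 without day 7 replicate 1, to 0.53 without ESC replicate 2. Centring put the all-gene median at -0.13 for EpiSC-like cells against ESC (0.03 as deposited) and at -0.20 for day 7 against ESC (0.02). With it 184 genes were called higher and 149 lower in the first comparison (239 and 106 as deposited), and 93 and 82 in the second (137 and 52). With the replicate block 0 genes of 18194 passed in any comparison in limma (smallest adjusted p = 0.0505), and 3369, 3920 and 3055 had an unadjusted p under 0.05 for EpiSC-like cells against ESC, day 7 against ESC and day 7 against EpiSC-like cells. Col1a2 stood at an adjusted p of 0.0748 there. Same-numbered deviations correlated across genes with r = 0.283, 0.0785 and 0.0969, and the samples share only a number in the labels. Over the alternatives, pathway genes called higher numbered 0 to 3 for EpiSC-like cells against ESC (1 as reported), 0 to 5 for day 7 against ESC (3) and 0 to 3 for day 7 against EpiSC-like cells (0), and those called lower 0 to 4 (2), 0 to 3 (1) and 0, with 0 in each without any 1 array. Of 419 comparisons of a named gene's difference with an alternative, 323 kept their side of the threshold and their direction, 78 lost the call, 14 gained it and 4 turned. Over all genes, the highest counts among the alternatives, in the same order of comparisons, were 458, 551 and 195 called higher. Called lower were at most 283, 292 and 120. The cause of the changes under the alternatives was not tested.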

Other observations

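Several chains have probe sets that did not give the same picture, which a reader of a single value per gene would miss. Col4a5, a type IV chain of the kidney and other basement membranes, had log2 differences of -0.26 and 0.61 between EpiSC-like cells and ESC on its 2 probe sets. The second of these read 56.1 and 47.4 in EpiSC-like cells, against 23.1 and 34.4 in ESC, and 48.4 and 73.7 at day 7, with both later groups above ESC. Col9a3, a FACIT chain of cartilage, gave 19.1 and 50.3 at day 7, against 75.8 and 130 in ESC, on a probe set not used above, whereas the probe set used gave 52.1 and 71.5 at day 7, against 135 and 31.8 in ESC. No test was run on the probe sets that do not represent a gene.

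Tll1, a procollagen C-proteinase of the tolloid family, gave 76.3 and 30.6 in EpiSC-like cells, against 7.04 and 1.68 in ESC, while the enhancers Pcolce and Pcolce2 fell. Its log2 difference of 1.70 ± 0.37 did not pass (limma adjusted p = 0.0803). Gp6, best known as the collagen receptor of platelets, gave 56.7 and 62.5 at day 7, against 5.58 and 12.6 in ESC, a log2 difference of 1.61 ± 0.32 that did not pass (limma adjusted p = 0.0757). Both genes were chosen after their values were seen.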
